A study of Mus musculus with 16 samples.

Results

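Vomeronasal receptor genes drew reads from the chromatin-associated RNA of mouse embryonic stem cells. The genes described here are the entries of the gene table named as vomeronasal type 1 receptors (V1R, Vmn1r), vomeronasal type 2 receptors (V2R, Vmn2r) or trace amine-associated receptors (TAAR, Taar) that drew at least 50 reads over the 16 libraries together, leaving out Vmn2r78 and Vmn2r79. There were 99 such genes among 578 genes of these families and 56941 genes in the table. They comprised 46 of 326 V1R genes, 52 of 236 V2R genes and 1 of 16 TAAR genes. Protein-coding entries numbered 68 and pseudogenes 31. Of the other family genes, 219 drew no read and 258 drew too few. The genes were chosen by their summed reads over all groups, so their levels are a description. Vmn2r-ps68 with 54 reads, Vmn2r30 with 55 and Vmn1r184 with 56 lay just inside the minimum, while Vmn1r218 and Vmn1r228 with 49 reads each and Vmn2r-ps94 with 48 lay just outside.

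The cells were E14TG2a, a mouse embryonic stem cell line, grown with LIF, PD0325901 and CHIR99021. They ectopically expressed IDR-deleted KDM4A, full-length KDM4A, IDR-deleted KDM4B, full-length KDM4B, IDR-deleted KDM6A, full-length KDM6A, IDR-deleted KDM6B or full-length KDM6B, with 2 libraries for each of these 8 groups. An IDR is an intrinsically disordered region, a stretch of protein without a fixed fold, and the labels write the deletion as del-cIDR in titles and del-IDR under genotype. Every group carried a construct, so each comparison sets a deleted form against its own full-length form and none refers to cells without a construct. The sources used here do not say that a group's libraries were separate cultures, so p-values measure only the spread between these libraries, which may be technical.

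Vomeronasal receptors are G-protein-coupled receptors of the vomeronasal organ, where sensory neurons detect pheromones and other social cues. V1Rs signal through the G protein Gnai2 in apical neurons, and V2Rs, which have a large extracellular ligand-binding domain, signal through Gnao1 in basal neurons. A mature neuron transcribes few of these genes, which lie in tandem clusters rich in pseudogenes and LINE-1 (L1) retrotransposon copies. KDM4A, KDM4B, KDM6A and KDM6B are histone lysine demethylases.

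Libraries held 32739117 to 54890756 gene reads, of which 1667 to 10791 fell on the 99 receptor genes. Reads of the gene Kdm6a marked the KDM6A groups, at 415.2 to 435.1 CPM (counts scaled to library size) with the IDR-deleted form and 424.8 to 440.8 CPM with the full-length form, against 95.7 to 156.1 CPM in the other groups. Kdm4a was at 300.3 and 291.5 CPM with IDR-deleted KDM4A and 217.0 and 205.5 CPM with full-length KDM4A, against 250.2 to 271.7 CPM in the KDM6B groups, so it did not mark both KDM4A groups. Kdm4b was within 74.9 to 102.8 CPM in every library and no higher in the KDM4B groups. Kdm6b was highest with IDR-deleted KDM6B, at 93.0 and 96.3 CPM, against 78.0 and 85.2 CPM with full-length KDM6B. The species of the constructs is not given in the sources used here, so these genes need not report them. The embryonic stem cell factors Nanog (105.1 to 228.4 CPM) and Sox2 (79.1 to 118.9 CPM) were read in every library. Of 8 markers of vomeronasal and olfactory sensory neurons, Trpc2, the transduction channel of vomeronasal neurons, drew no read in any library, and Cnga2, a channel subunit of olfactory neurons, was at 0 in 11 libraries. The summed level of the 8 markers was 34.9 to 63.2 CPM, most of it from Stmn2 and Omp. It was 34.9 and 35.8 CPM with IDR-deleted KDM4B, against 63.2 and 61.4 CPM with full-length KDM4B, and 59.4 and 60.7 CPM with IDR-deleted KDM6B, against 35.1 and 35.4 CPM with full-length KDM6B. With IDR-deleted KDM6A it was 47.4 and 49.0 CPM, against 38.2 and 37.5 CPM with full-length KDM6A, and the KDM4A groups overlapped. The summed level of 6 fibroblast markers was 3.49 to 8.15 CPM.

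Promoter windows of members whose levels differed most clearly between groups are shown first, because they let related members be compared letter by letter. RefSeq windows on GRCm38.p6, from 250 bases before to 50 bases after a gene's RefSeq start, matched 60 of the 99 genes by symbol. RefSeq starts were not matched to the starts of the counted entries, so a window need not be the promoter of the gene counted. Capitals mark the longest run that a window shares with the window of a named relative: Vmn1r47 and Vmn1r43 with each other, Vmn1r219 with Vmn1r220, and Vmn2r84 and Vmn2r88 with each other. All are written 5′ to 3′ on the gene's strand.
Vmn1r47: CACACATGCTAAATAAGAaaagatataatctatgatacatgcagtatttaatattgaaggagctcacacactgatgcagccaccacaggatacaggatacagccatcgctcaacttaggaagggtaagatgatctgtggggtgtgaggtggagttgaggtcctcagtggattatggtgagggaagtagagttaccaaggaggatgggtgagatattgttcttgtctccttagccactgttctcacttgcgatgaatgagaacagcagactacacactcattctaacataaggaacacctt
Vmn1r43: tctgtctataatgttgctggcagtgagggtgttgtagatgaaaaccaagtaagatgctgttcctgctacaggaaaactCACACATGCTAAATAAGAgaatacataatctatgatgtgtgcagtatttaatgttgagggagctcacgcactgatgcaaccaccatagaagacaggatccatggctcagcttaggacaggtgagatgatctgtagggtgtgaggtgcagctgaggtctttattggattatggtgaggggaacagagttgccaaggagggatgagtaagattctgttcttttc
Vmn1r219: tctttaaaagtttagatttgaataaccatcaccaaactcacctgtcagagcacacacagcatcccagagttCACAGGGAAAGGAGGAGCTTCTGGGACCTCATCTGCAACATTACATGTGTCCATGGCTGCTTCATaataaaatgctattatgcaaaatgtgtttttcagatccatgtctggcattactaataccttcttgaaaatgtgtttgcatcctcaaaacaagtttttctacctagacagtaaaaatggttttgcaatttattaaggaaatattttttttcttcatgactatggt
Vmn2r84: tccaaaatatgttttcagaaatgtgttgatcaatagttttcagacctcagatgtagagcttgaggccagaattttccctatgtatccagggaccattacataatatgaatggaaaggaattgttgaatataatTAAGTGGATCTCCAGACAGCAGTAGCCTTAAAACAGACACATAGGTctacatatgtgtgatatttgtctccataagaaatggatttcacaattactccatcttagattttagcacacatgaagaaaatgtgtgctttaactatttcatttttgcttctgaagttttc
Vmn2r88: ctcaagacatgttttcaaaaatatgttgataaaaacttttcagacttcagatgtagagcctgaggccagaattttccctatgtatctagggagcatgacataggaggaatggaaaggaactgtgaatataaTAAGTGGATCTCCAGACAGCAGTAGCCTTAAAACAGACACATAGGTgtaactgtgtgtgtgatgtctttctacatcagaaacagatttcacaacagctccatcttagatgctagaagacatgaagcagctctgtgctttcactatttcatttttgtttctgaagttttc
The windows lie at chr6:90021638-90021937 (plus strand) for Vmn1r47, chr6:89870480-89870779 (minus strand) for Vmn1r43, chr13:23162393-23162692 (plus strand) for Vmn1r219, chr10:130394192-130394491 (minus strand) for Vmn2r84 and chr14:51410751-51411050 (plus strand) for Vmn2r88. The window of Vmn1r48, at chr6:90036792-90037091 on the minus strand, was identical to that of Vmn1r47 over all 300 bases. The run of 18 bases shared by Vmn1r47 and Vmn1r43 occurred in 3 of 32851 RefSeq promoter windows, the third being that of Vmn1r48. The run of 46 bases shared by Vmn2r84 on chromosome 10 and Vmn2r88 on chromosome 14 occurred in full in no other window, and neither did the run of 65 bases shared by Vmn1r219 and Vmn1r220. Other relatives shared runs of similar or greater length. The window of Vmn2r89 shared 44 bases with that of Vmn2r84 and 129 with that of Vmn2r88, and Vmn2r86 shared 58 with Vmn2r84. In all, 36 of the 60 genes shared a run of at least 18 bases with the window of another. Reads matching several places were given to no gene, so a gene with a near-identical copy could be undercounted. How many reads were lost in this way was not measured.

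The 60 windows had a median GC content of 37.0%, against 52.7% over all 32851 windows. TATAAA, the letters of the TATA box, was searched on both strands and occurred in 23 of the 60 windows (38.3%), against 13.6% of all windows. In the 60 windows these matches began at positions -242 to -69 from the RefSeq start, or at 18 and 36 after it. Position was not part of the search, so a match need not act as a TATA box. TAATTA, a core of homeodomain sites, occurred in 11.7% of the 60 and 5.29% of all, and the octamer ATGCAAAT in 5.00% and 1.74%. The E-box CACGTG occurred in 0 of the 60 windows and 7.15% of all, CCCNNGGG, part of sites bound by EBF factors, in 5.00% and 13.7%, and TGACGTCA, the cAMP response element, in 1.67% and 1.79%. These counts describe letters around RefSeq starts, in windows of different base composition. TAATTA in the window of Vmn2r84 was the only match among the 5 windows shown.

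Reads were spread unevenly. Vmn1r47 alone held 19.6% of the 86084 reads of the 99 genes, and together with Vmn1r-ps151 and Vmn1r219 it held 39.6%, while the median gene drew 227 reads. Only 48 genes drew a read in every library, 17 V1R and 31 V2R genes. Per kilobase of exon, the level was highest in pseudogenes: 16.6 RPKM (CPM per kilobase of exon) for Vmn1r-ps151, 7.45 for Vmn2r-ps20, 6.38 for Vmn1r-ps136 and 5.55 for Vmn1r-ps145, as means over the 16 libraries. Vmn1r47 followed at 3.58 RPKM, and the median gene was at 0.105 RPKM. Full-length KDM4B had the highest group mean for 51 of the 99 genes and full-length KDM4A for 16. Among the 92 genes with a single lowest group, IDR-deleted KDM4A was lowest for 31, full-length KDM6B for 27 and IDR-deleted KDM6B for 21. The same ranking over all genes is not given here. A gene could also reach the minimum of 50 reads through a single high group. These rankings therefore describe the chosen genes only.

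The summed level of the receptor genes was lower with the IDR-deleted than with the full-length form of KDM4A and of KDM4B, and close between both forms of KDM6A and of KDM6B. All 99 genes together gave 53.6 and 57.1 CPM with IDR-deleted KDM4A, against 178.7 and 181.6 CPM with full-length KDM4A, a ratio of 0.307. With IDR-deleted KDM4B they gave 104.5 and 104.4 CPM, against 263.5 and 271.1 CPM with full-length KDM4B, a ratio of 0.391. Neither pair of groups overlapped. For KDM6A the sums were 136.2 and 138.2 CPM in IDR-deleted and 134.5 and 136.6 CPM in full-length libraries, which overlapped. For KDM6B they were 58.4 and 57.7 CPM in IDR-deleted and 54.9 and 55.3 CPM in full-length libraries, a ratio of 1.05. Both KDM6B groups were thus near the level of IDR-deleted KDM4A. The sums are given as a description, with no test; an exact permutation test of 2 libraries against 2 cannot go below p = 0.33.

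V1R genes made most of the difference, much of it through Vmn1r47 and, with KDM4B, Vmn1r219, whose values follow below. The 46 V1R genes summed to 28.1 and 33.2 CPM with IDR-deleted KDM4A, against 130.5 and 134.5 CPM with full-length KDM4A. With IDR-deleted KDM4B they summed to 51.8 and 52.8 CPM, against 197.8 and 201.0 CPM with full-length KDM4B. The 52 V2R genes gave 25.3 and 23.8 CPM with IDR-deleted KDM4A, against 48.1 and 46.8 CPM with full-length KDM4A, and 52.6 and 51.4 CPM with IDR-deleted KDM4B, against 65.7 and 70.0 CPM with full-length KDM4B. Both families were thus lower, the V2R sum by less. Without Vmn1r47, the other 98 genes had a mean sum of 52.8 CPM with IDR-deleted KDM4A, against 121.8 CPM with full-length KDM4A. For KDM4B these means were 95.1 CPM (IDR-deleted) and 206.5 CPM (full-length). The 477 family genes under the minimum summed to 2.27 and 2.50 CPM with IDR-deleted KDM4A, against 5.56 and 5.91 CPM with full-length KDM4A, and to 3.63 and 4.54 CPM with IDR-deleted KDM4B, against 8.18 and 9.39 CPM with full-length KDM4B.

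**Figure D1:**
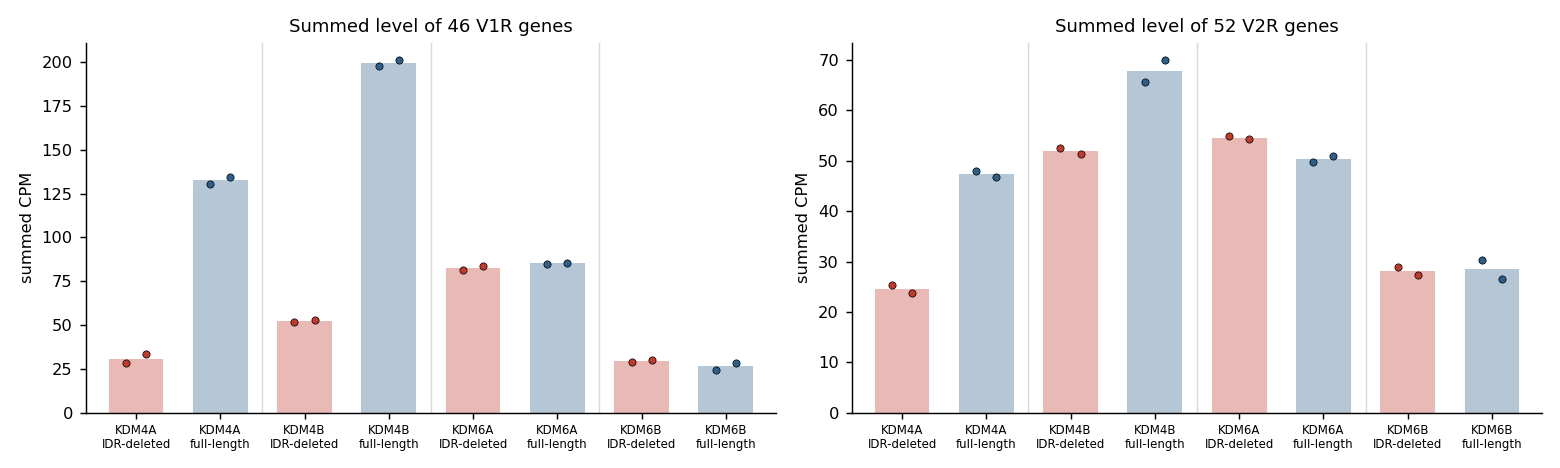
Summed CPM of the 46 V1R genes (left) and the 52 V2R genes (right) in each group; points are the 2 libraries and bars their mean, with IDR-deleted forms in red and full-length forms in blue. V1R sums lie between 28.1 and 33.2 CPM with IDR-deleted KDM4A and between 197.8 and 201.0 CPM with full-length KDM4B.

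Repeat reads were also fewer with IDR-deleted KDM4A and KDM4B. The IDR-deleted KDM4A group and both KDM6B groups were lowest in repeat reads per 100 gene reads and in receptor sums. The order of the other groups differed between these measures. Repeat reads per 100 gene reads were 60.9 to 62.0 with IDR-deleted KDM4A, against 80.4 to 82.2 with full-length KDM4A, and 83.1 to 84.5 with IDR-deleted KDM4B, against 91.4 to 92.1 with full-length KDM4B. The KDM6A groups were at 92.7 to 95.4 (IDR-deleted) and 90.9 to 91.6 (full-length), and the KDM6B groups at 50.1 to 50.2 (IDR-deleted) and 58.6 to 59.7 (full-length). ERCC spike-in reads were 1.06% to 1.12% of gene reads with IDR-deleted KDM4A, against 0.781% to 0.800% with full-length KDM4A, 0.684% to 0.697% with IDR-deleted KDM4B, against 0.582% to 0.593% with full-length KDM4B, 0.806% to 0.813% with IDR-deleted KDM6A, against 0.695% to 0.730% with full-length KDM6A, and 1.52% to 1.55% with IDR-deleted KDM6B, against 1.15% to 1.24% with full-length KDM6B. They were thus higher with the IDR-deleted form of each demethylase, also where the receptor sums were close. Across groups they were highest with IDR-deleted KDM4A and in both KDM6B groups, where the receptor sums were lowest. The part of repeat and spike-in reads in the receptor sums was not tested. In such bulk RNA, fewer cells that transcribe a gene and less RNA per cell cannot be told apart.

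With IDR-deleted KDM4A, receptor genes fell and none rose. Of the 92 genes tested, 39 fell and 0 rose at an adjusted p under 0.05 (edgeR's quasi-likelihood test, Benjamini-Hochberg over 31057 genes), 42.4% of them, against 50.5% of all genes tested (24.6% higher and 25.9% lower). The median log2 fold change was -1.35, with genes without reads in 1 group set at their bound, and -0.05 over all genes. Of the calls over all genes 48.7% were higher, and 33.7% with library totals or 7.61% with ERCC scaling, which shifted the median of all genes to -0.70, while no receptor gene rose under either. In 68 genes both IDR-deleted libraries were below both full-length libraries and in 4 above, against 38.7% and 34.5% of all genes. A single rise appeared without IDR-deleted KDM4A replicate 2, and likewise without full-length KDM4A replicate 1. A gene could reach the sum of 50 reads through 1 high group, so these counts describe the chosen genes only. By family, 22 of 43 V1R and 17 of 48 V2R genes tested fell, and by class 27 of 64 protein-coding genes and 12 of 28 pseudogenes.

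The V1R gene Vmn1r47 (ENSMUSG00000060724, chromosome 6, 89993129 to 90004459, plus strand, GRCm39) showed the change with most reads. It was at 2.04 and 3.05 CPM with IDR-deleted KDM4A, against 58.2 and 58.5 CPM with full-length KDM4A, a log2 fold change of -4.53 ± 0.12 (SE; edgeR adjusted p = 1.02e-25). Its window shared all letters with that of Vmn1r48 (ENSMUSG00000057592, chromosome 6, 90012915 to 90013823, minus strand), which was at 1.28 and 0.822 CPM, against 6.01 and 4.21 CPM, and fell by 2.26 ± 0.26 on the log2 scale. Both genes of this pair were lower in each IDR-deleted library. Among V2R genes, Vmn2r84 (ENSMUSG00000070601, chromosome 10, 130213794 to 130230201) was at 0.175 and 0.411 CPM with IDR-deleted KDM4A, against 3.65 and 2.77 CPM with full-length KDM4A, a log2 fold change of -3.48 ± 0.33 (edgeR adjusted p = 1.65e-11). The pseudogene Vmn1r-ps151, which had the most reads per length, was at 9.08 and 11.4 CPM, against 21.3 and 23.9 CPM, a smaller log2 fold change of -1.15 ± 0.10.

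By fitted fold change, the 5 largest falls were genes that drew no read with IDR-deleted KDM4A. Against a floor of 3 reads over the group, Vmn1r34 was at least 15.8-fold lower, Vmn1r90 at least 12.4-fold, Vmn1r46 at least 11.7-fold, Vmn2r-ps2 at least 9.63-fold and Vmn2r82 at least 7.34-fold. With full-length KDM4A these genes had 69, 54, 51, 42 and 32 reads in the same order. The bounds cover counting error only, and may be too high since both reads of a fragment enter the counts. Vmn2r1, a V2R of the family C that is coexpressed with other V2Rs in vomeronasal neurons, was at 1.86 and 2.09 CPM with IDR-deleted KDM4A, against 1.58 and 2.22 CPM with full-length KDM4A, and these libraries overlapped (log2 fold change 0.04 ± 0.22).

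Other well-read genes fell with both KDM4 deletions. Vmn1r88, a V1R of chromosome 7, was at 3.38 and 4.28 CPM with IDR-deleted KDM4A, against 7.71 and 8.45 CPM with full-length KDM4A (-1.08 ± 0.16), and at 4.43 and 4.09 CPM with IDR-deleted KDM4B, against 9.99 and 11.6 CPM with full-length KDM4B (-1.34 ± 0.15). The pseudogene Vmn2r-ps20 was at 0.640 and 0.548 CPM with IDR-deleted KDM4A, against 2.91 and 3.44 CPM with full-length KDM4A (-2.41 ± 0.25), and at 3.56 and 2.81 CPM with IDR-deleted KDM4B, against 5.15 and 6.18 CPM with full-length KDM4B (-0.83 ± 0.19). Neither gene's libraries overlapped in these comparisons. Vmn1r14, among the 12 genes with most reads, passed the test in none of the 4 comparisons.

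With IDR-deleted KDM4B, most receptor genes that changed fell, but 5 rose. Of 92 genes, 30 fell and 5 rose, together 38.0%, against 36.2% of all genes (18.6% higher and 17.6% lower). The median log2 fold change was -1.03, and 0.01 over all genes. In 54 genes both IDR-deleted libraries were below both full-length libraries and in 13 above, against 33.2% and 33.6% of all genes. Of the 39 genes that fell with IDR-deleted KDM4A, 23 also fell here, which is 59.0% of those 39 and 76.7% of these 30. The matching share over all genes is not given here, so this overlap describes the chosen genes only.

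Vmn1r219 (ENSMUSG00000061376, chromosome 13, 23343482 to 23352324, plus strand) was at 3.01 and 2.77 CPM with IDR-deleted KDM4B, against 46.8 and 51.8 CPM with full-length KDM4B, a log2 fold change of -4.09 ± 0.14 (edgeR adjusted p = 2.10e-23). Full-length KDM4B libraries were the highest of all for this gene. With IDR-deleted KDM4A it was at 0.699 and 0.342 CPM, against 9.03 and 9.67 CPM with full-length KDM4A (-4.13 ± 0.20). Vmn1r47 was at 9.44 and 9.21 CPM with IDR-deleted KDM4B, against 63.8 and 57.8 CPM with full-length KDM4B (-2.70 ± 0.10). Its 4 full-length KDM4A and KDM4B libraries lay within 57.8 to 63.8 CPM. Other falls were Vmn1r46 (-4.18 ± 0.76), Vmn1r43 (-3.27 ± 0.32) and the pseudogene Vmn1r-ps113 (-3.46 ± 0.83). Vmn2r-ps68 had 2 reads with IDR-deleted KDM4B, against 26 reads with full-length KDM4B, and its call (edgeR adjusted p = 0.0201) was lost without IDR-deleted replicate 2 (0.220), full-length replicate 1 (0.0939) or full-length replicate 2 (0.0783).

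**Figure D2:**
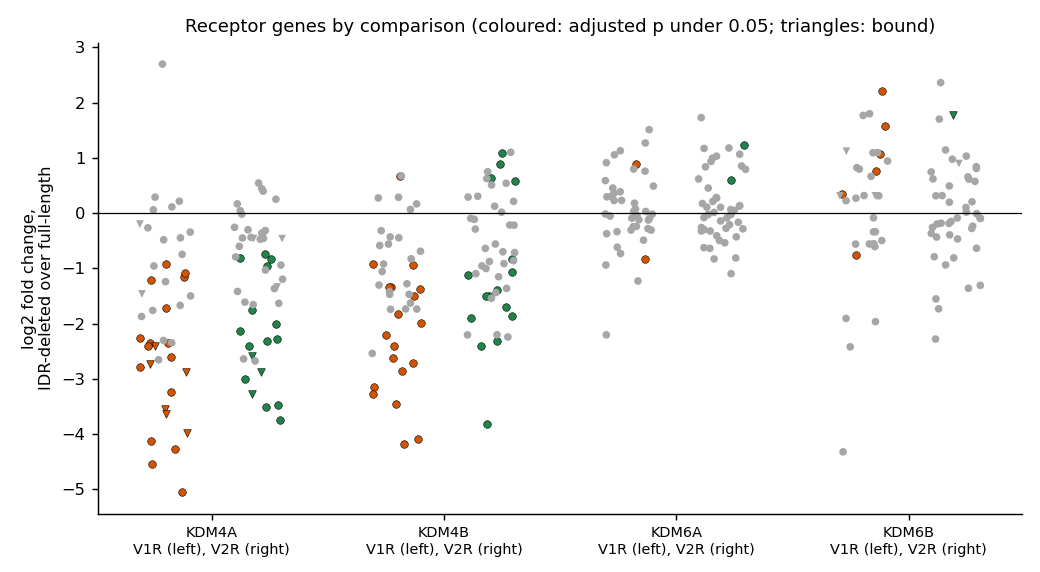
Log2 fold change (IDR-deleted over full-length) of each tested V1R and V2R gene in the 4 comparisons; coloured points passed an adjusted p of 0.05, grey points did not, and triangles are bounds for genes without reads in 1 group. Genes with 3 reads or fewer in both groups are not drawn; with KDM4A all 39 coloured points lie below 0.

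Vmn2r88 (ENSMUSG00000000606, chromosome 14, 51648277 to 51658178, plus strand) rose the most with IDR-deleted KDM4B, at 3.65 and 3.37 CPM, against 1.49 and 1.81 CPM with full-length KDM4B (log2 fold change 1.09 ± 0.23, edgeR adjusted p = 0.000236). With IDR-deleted KDM4A it fell, at 0.640 and 1.06 CPM, against 3.10 and 2.61 CPM with full-length KDM4A (-1.76 ± 0.27). It therefore moved in opposite directions in these comparisons, while Vmn2r84, which shares the 46-base run with it, fell in both. The other rises were pseudogenes: Vmn2r-ps97 (0.88 ± 0.25), Vmn1r-ps136 (0.68 ± 0.22), Vmn2r-ps105 (0.63 ± 0.24) and Vmn2r-ps103 (0.59 ± 0.18). Each of these 4 calls was lost when 1 library was left out. The adjusted p of Vmn2r-ps97 was 0.0591 without IDR-deleted replicate 2 and 0.118 without full-length replicate 1. That of Vmn1r-ps136 was 0.0921 without IDR-deleted replicate 2, 0.0795 without full-length replicate 1 and 0.0558 without full-length replicate 2. That of Vmn2r-ps105 was 0.194 without IDR-deleted replicate 1, 0.0535 without IDR-deleted replicate 2 and 0.468 without full-length replicate 1. That of Vmn2r-ps103 was 0.110 without IDR-deleted replicate 1 and 0.0556 without full-length replicate 2. With ERCC scaling the adjusted p was 0.0882 for Vmn2r-ps103, 0.135 for Vmn2r-ps105 and 0.0944 for Vmn1r-ps136, and with DESeq2 0.119 for Vmn2r-ps105 and 0.0523 for Vmn1r-ps136. The call of Vmn2r88 held under every alternative run.

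**Figure D3:**
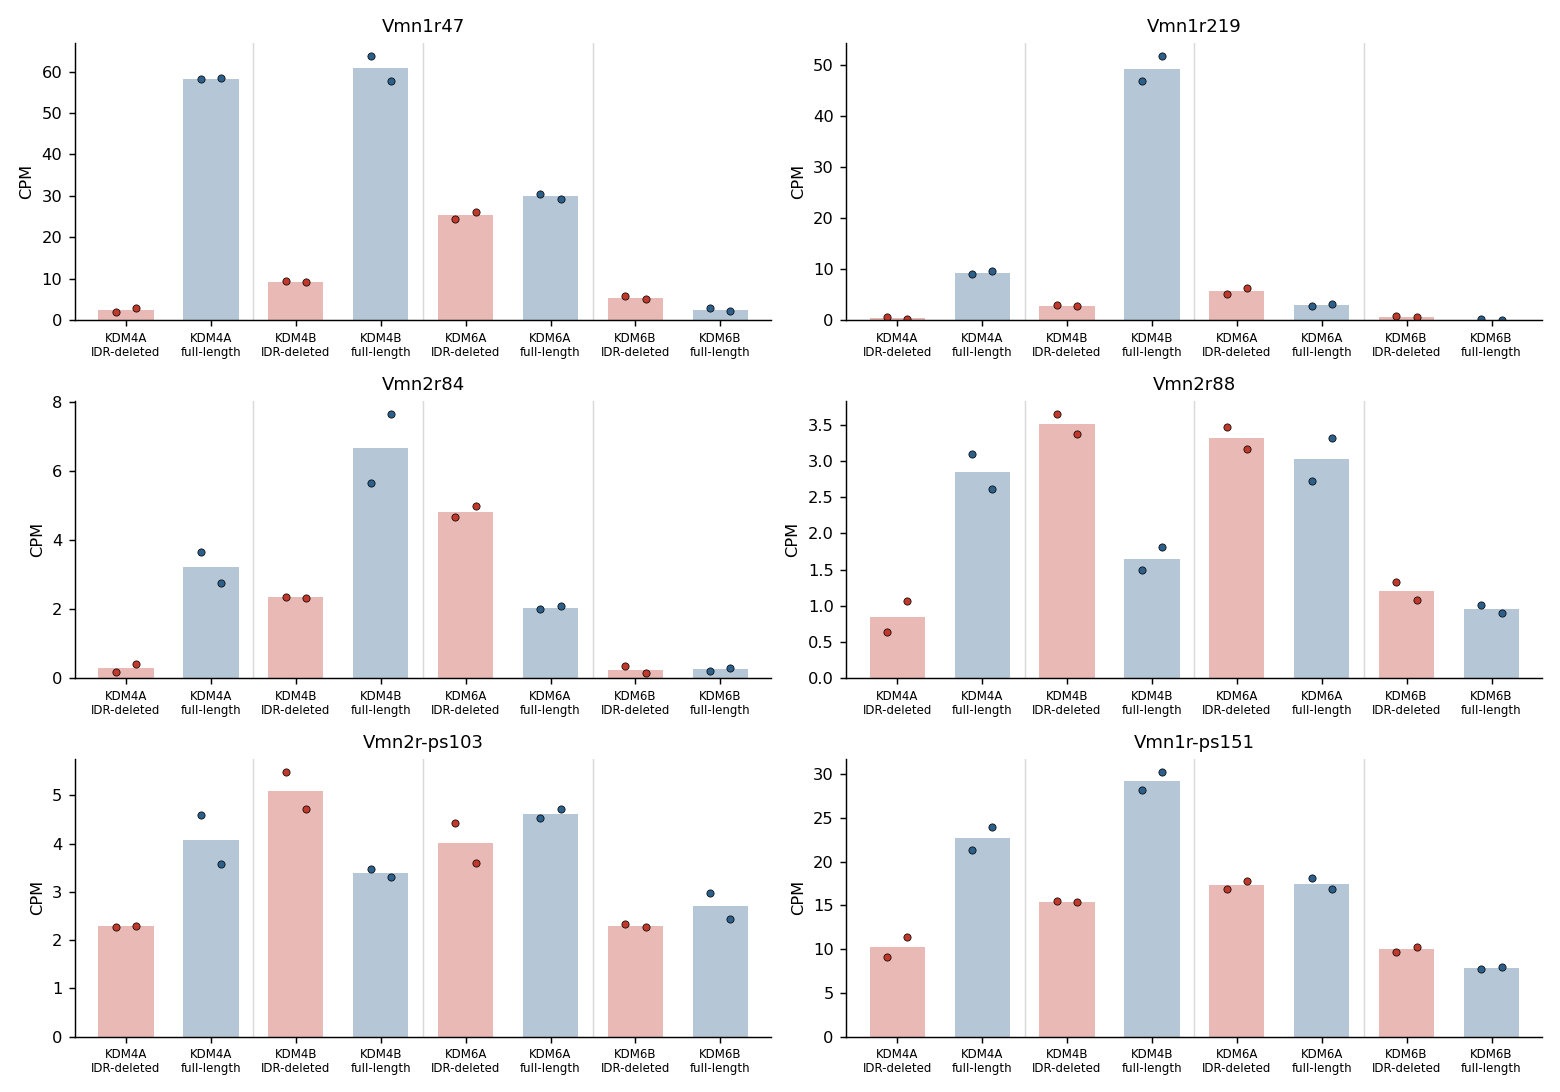
CPM of 6 receptor genes in each library (points) with group means (bars), IDR-deleted forms in red and full-length forms in blue; each panel has its own axis from 0. Vmn1r47 and Vmn1r219 are lower with IDR-deleted KDM4A and KDM4B, while Vmn2r88 and Vmn2r-ps103 are higher with IDR-deleted KDM4B.

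Receptor genes were grouped into clusters, with neighbouring family genes at most 500000 bases apart, to see whether genes of 1 place moved together. The V1R cluster on chromosome 6 between 89675701 and 90248195 held 8 of the 99 genes among 23 family genes, and all 8 fell with IDR-deleted KDM4A: Vmn1r43, Vmn1r46, Vmn1r-ps29, Vmn1r47, Vmn1r48, Vmn1r51, Vmn1r52 and Vmn1r53. Their sum was 4.08 and 4.55 CPM with IDR-deleted KDM4A, against 71.3 and 68.5 CPM with full-length KDM4A. With IDR-deleted KDM4B it was 12.7 and 12.8 CPM, against 81.6 and 75.0 CPM with full-length KDM4B, and 5 of the 8 fell and none rose. Of all genes tested, 25.9% fell with IDR-deleted KDM4A and 17.6% with IDR-deleted KDM4B. Beyond Vmn1r47, the pseudogene Vmn1r-ps29 was at 0.116 and 0 CPM with IDR-deleted KDM4A, against 2.03 and 2.31 CPM with full-length KDM4A (-5.05 ± 0.54). The weakest of these falls by its test was that of Vmn1r53 (edgeR adjusted p = 0.0214), at 0 and 0.274 CPM with IDR-deleted KDM4A, against 0.861 and 0.485 CPM.

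The V1R cluster on chromosome 13 between 22241516 and 23453644 held 12 of the 99 genes among 70 family genes. Its sum was 5.19 and 5.12 CPM with IDR-deleted KDM4B, against 54.3 and 57.9 CPM with full-length KDM4B, nearly all from Vmn1r219, and 3 of the 12 genes fell. With IDR-deleted KDM4A it was 2.47 and 1.61 CPM, against 12.7 and 14.2 CPM with full-length KDM4A, and 4 fell. The shares of its genes called, 25% with KDM4B and 33.3% with KDM4A, lay below those of all genes (36.2% and 50.5%). In this cluster Vmn1r220, whose window shares 65 bases with that of Vmn1r219, drew 249 reads in full-length KDM6B replicate 2 and 4 to 35 reads in each of the other libraries, a value of 1 library.

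The V2R pseudogene cluster on chromosome 13 between 65501070 and 67021422 held 10 of the 99 genes among 11 family genes, Vmn2r-ps95 to Vmn2r-ps109, none of them with exon bases in a repeat copy. The sum was 14.15 and 13.01 CPM with IDR-deleted KDM4A, against 18.8 and 17.5 CPM with full-length KDM4A, and 27.9 and 26.7 CPM with IDR-deleted KDM4B, against 19.02 and 20.03 CPM with full-length KDM4B. With KDM4A 3 of the 10 fell and none rose (median log2 fold change -0.41), and with KDM4B 3 rose and none fell (median 0.56). Vmn2r-ps103 was at 2.27 and 2.29 CPM with IDR-deleted KDM4A, against 4.59 and 3.58 CPM with full-length KDM4A, and at 5.48 and 4.72 CPM with IDR-deleted KDM4B, against 3.47 and 3.31 CPM with full-length KDM4B. Vmn2r-ps99 fell with IDR-deleted KDM4A (-0.96 ± 0.28), and so did Vmn2r-ps97 (-0.75 ± 0.28), whose edgeR adjusted p of 0.0250 became 0.258 without IDR-deleted replicate 1, 0.0854 without full-length replicate 1 and 0.0622 without full-length replicate 2. Vmn2r-ps95 and Vmn2r-ps106 did not pass the test in any of the 4 comparisons, although Vmn2r-ps106 passed with IDR-deleted KDM4B when the replicate number was added as a block. These shares of genes called lay below those of all genes (50.5% with KDM4A, 36.2% with KDM4B). Outside this cluster 36 of 82 genes fell and none rose with KDM4A, and 30 fell and 2 rose with KDM4B.

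**Figure D4:**
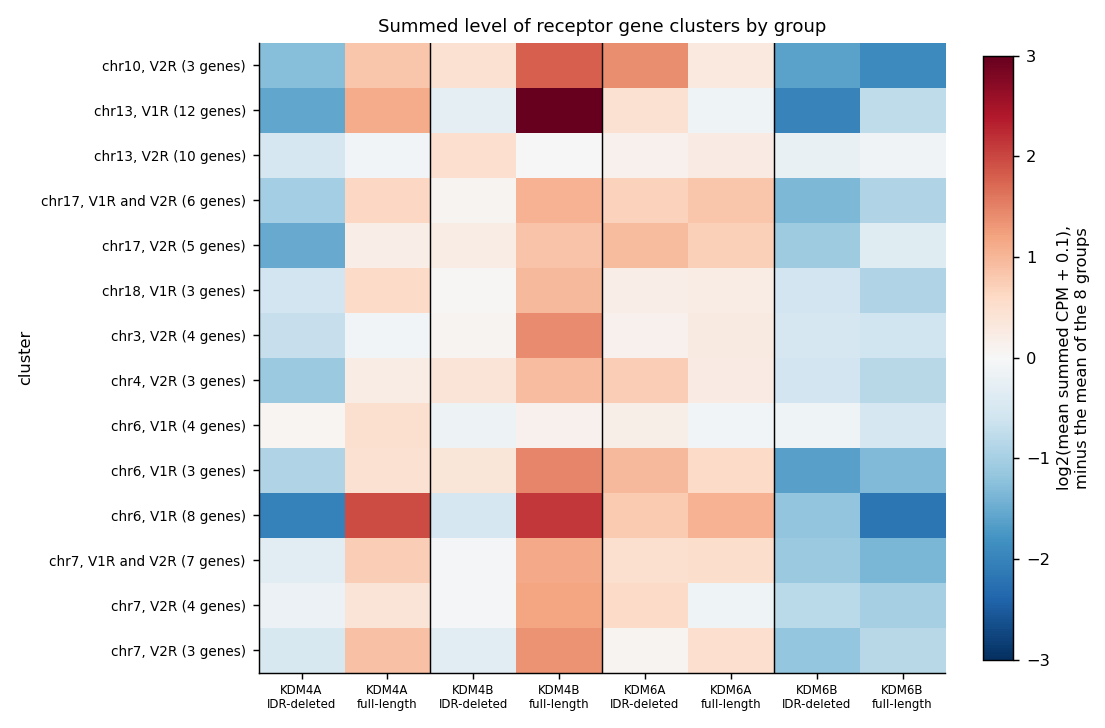
Summed level of the receptor genes of each cluster with at least 3 of the 99 genes, by group, as log2 of the mean summed CPM plus 0.1, minus the mean of the 8 groups; rows give the chromosome, family and number of genes. The chromosome 6 row of 8 V1R genes is at 4.08 and 4.55 CPM with IDR-deleted KDM4A and 71.3 and 68.5 CPM with full-length KDM4A, with full-length KDM6B lowest (4.09 and 3.79 CPM) and full-length KDM4B highest (81.6 and 75.0 CPM).

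Few receptor genes changed with the IDR deletion of KDM6A. Of 92 genes, 3 rose and 1 fell, together 4.35%, against 17% of all genes (8.3% higher and 8.65% lower). With ERCC scaling the receptor calls were 2 higher and 5 lower. That scaling moved the median log2 fold change of all genes to -0.21. Of the calls over all genes, 5.84% were then higher, against 49.0% in the main fit. In 20 genes the IDR-deleted libraries lay above the full-length ones and in 19 below, against 26.9% and 26.7% of all genes. Vmn2r84 was at 4.67 and 4.99 CPM with IDR-deleted KDM6A, against 2.01 and 2.08 CPM with full-length KDM6A (log2 fold change 1.24 ± 0.23, edgeR adjusted p = 0.000125). Vmn1r219 was at 5.12 and 6.27 CPM, against 2.87 and 3.28 CPM (0.90 ± 0.15), and both of these calls held under every alternative run. Vmn2r-ps20, a V2R pseudogene, was at 4.69 and 4.97 CPM, against 3.00 and 3.37 CPM (0.60 ± 0.19).

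Vmn1r48 was the single fall, at 1.47 and 1.77 CPM with IDR-deleted KDM6A, against 3.32 and 2.40 CPM with full-length KDM6A (-0.82 ± 0.24, edgeR adjusted p = 0.0126). Its neighbour Vmn1r47, with the identical window, was at 24.5 and 26.2 CPM, against 30.5 and 29.3 CPM (-0.24 ± 0.09, adjusted p = 0.0812), a fall that passed edgeR's test when the replicate number was added as a block. The 4 calls became 2 without IDR-deleted KDM6A replicate 1 and 2 without full-length KDM6A replicate 1. The call of Vmn1r48 was then lost, at adjusted p = 0.128 and 0.269 in that order. That of Vmn2r-ps20 (0.0248 with all libraries) was lost without any 1 of the 4 KDM6A libraries: 0.0708 and 0.140 without IDR-deleted replicates 1 and 2, 0.195 and 0.0653 without full-length replicates 1 and 2.

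With IDR-deleted KDM6B, 6 genes rose and 1 fell, together 7.61%, against 20.6% of all genes (9.89% higher and 10.7% lower). With ERCC scaling the receptor calls were 5 higher and 11 lower. That scaling moved the median log2 fold change of all genes to -0.38. Of the calls over all genes, 4.74% were then higher, against 47.9% in the main fit. In 20 genes the IDR-deleted libraries lay above the full-length ones and in 14 below, against 29.4% and 28.6% of all genes. Of the 6 rises, 3 were V1R genes of the chromosome 6 cluster. Vmn1r47 was at 5.93 and 5.04 CPM with IDR-deleted KDM6B, against 2.86 and 2.32 CPM with full-length KDM6B (log2 fold change 1.08 ± 0.12, edgeR adjusted p = 3.48e-08). Vmn1r219 was at 0.826 and 0.627 CPM, against 0.173 and 0.135 CPM (2.20 ± 0.32, adjusted p = 2.45e-06). These calls held under every alternative run, although both levels were low beside those of the full-length KDM4 groups.

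Every other call with IDR-deleted KDM6B was lost when certain single libraries were left out. The 7 calls became 3 without IDR-deleted replicate 2, 3 without full-length replicate 1 and 4 without full-length replicate 2. Vmn1r43 rose by 1.58 ± 0.44 (edgeR adjusted p = 0.00714), with 0.210 without IDR-deleted replicate 1 and 0.153 without full-length replicate 1. Vmn1r48 rose by 0.76 ± 0.26 (0.0355), with 0.263 without IDR-deleted replicate 2, 0.210 without full-length replicate 1 and 0.0778 without full-length replicate 2. Vmn1r-ps151 rose by 0.35 ± 0.10 (0.0130), with 0.121 without IDR-deleted replicate 2 and 0.0981 without full-length replicate 1, and was at 9.69 and 10.25 CPM, against 7.73 and 7.97 CPM. With ERCC scaling the log2 fold change of Vmn1r-ps151 was -0.034 and the adjusted p of Vmn1r48 was 0.252. DESeq2 gave 0.0745 for Vmn1r48 and 0.0873 for Vmn1r-ps145. Vmn2r82 had 11 reads with IDR-deleted KDM6B and 0 with full-length KDM6B, at least 3.42-fold higher (edgeR adjusted p = 0.0300), with 0.121 without IDR-deleted replicate 2, 0.155 without full-length replicate 1 and 0.132 without full-length replicate 2. Vmn1r-ps145 fell by 0.76 ± 0.27 on the log2 scale (0.0447), and leaving out IDR-deleted replicates 1 and 2 and full-length replicates 1 and 2 in turn gave 0.307, 0.0585, 0.229 and 0.0764.

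Effects of the deletions were compared directly. The KDM4A effect differed from the KDM4B effect in 20 of 92 genes, against 31.1% of all genes, and in 18 of them the KDM4A effect was the lower and in 2 the higher (15.6% and 15.4% of all genes). For Vmn1r47 the difference of log2 fold changes was -1.83 ± 0.16 (edgeR adjusted p = 2.32e-11), for Vmn2r88 -2.85 ± 0.35 (3.22e-08) and for Vmn2r-ps103 -1.42 ± 0.26 (4.35e-05). Vmn1r219 gave -0.04 ± 0.24 (0.937). The pair where the KDM4A effect was the higher were Vmn2r1 and Vmn1r43, named after their values were seen. The count was 12 without IDR-deleted KDM4A replicate 1 and 13 without full-length KDM4A replicate 2. The KDM6A effect differed from the KDM6B effect in 4 genes, against 21.8% of all genes, and was the lower in all 4 (10.7% of all genes, 11% being higher): Vmn1r47 (-1.32 ± 0.15, adjusted p = 6.45e-08), Vmn1r48 (-1.58 ± 0.36, 0.000932), Vmn1r43 (-2.31 ± 0.55, 0.00181) and Vmn1r219 (-1.31 ± 0.37, 0.00848). Any difference among the 8 groups was called for 65 of 92 genes, against 75.8% of all genes.

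Exons of receptor genes often lie on repeat copies. Of the 99 genes, 66 (66.7%) had exon bases in a repeat copy, 50 of them in an L1 copy, against 49.1% of the 479 other family genes. The median share of exon bases in repeats was 16.7%. Reads counted on these copies came to 31.7 per 100 reads of the genes, and the same read can enter both tables. Among the genes with such bases, 26 of 61 tested fell with IDR-deleted KDM4A and none rose, against 13 of 31 without them. With IDR-deleted KDM4B, 21 fell and 1 rose with such bases, and 9 of 31 fell and 4 rose without them. Of all genes, 25.9% fell and 24.6% rose with IDR-deleted KDM4A, and 17.6% fell and 18.6% rose with IDR-deleted KDM4B. The genes without such bases summed to 24.3 and 23.7 CPM with IDR-deleted KDM4A, against 43.7 and 42.5 CPM with full-length KDM4A, a ratio of 0.557. With IDR-deleted KDM4B they summed to 46.6 and 47.5 CPM, against 57.5 and 59.3 CPM with full-length KDM4B, a ratio of 0.806. Of these 33 genes, 27 were pseudogenes. They include the 10 genes of the V2R pseudogene cluster on chromosome 13. The mean sum of those 10 was higher with IDR-deleted KDM4B, at 27.3 CPM, against 19.5 CPM with full-length KDM4B. Both ratios thus mix genes that moved differently.

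An L1 copy of 2136 bases lies on the opposite strand across the 3′ end of Vmn1r219 (chromosome 13, 23352195 to 23354330), sharing 130 bases with the gene's last exon. It was at 0.932 and 1.03 CPM with IDR-deleted KDM4A, against 13.6 and 13.8 CPM with full-length KDM4A, and at 3.79 and 3.65 CPM with IDR-deleted KDM4B, against 54.3 and 59.8 CPM with full-length KDM4B. The copy was thus lowest and highest in much the same groups as the gene. With KDM6A it was at 7.44 and 8.92 CPM in IDR-deleted and 4.76 and 4.17 CPM in full-length libraries, and with KDM6B at 1.37 and 1.16 CPM in IDR-deleted and 0.520 and 0.587 CPM in full-length libraries. Strand was not used in counting, so reads of the gene and reads of the copy's other strand cannot be told apart where they overlap. Another L1 copy, of 781 bases, lies wholly in exons of Vmn1r47 on its strand, and was at 0.495 and 0.342 CPM with IDR-deleted KDM4A, against 7.10 and 6.78 CPM with full-length KDM4A.

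**Figure D5:**
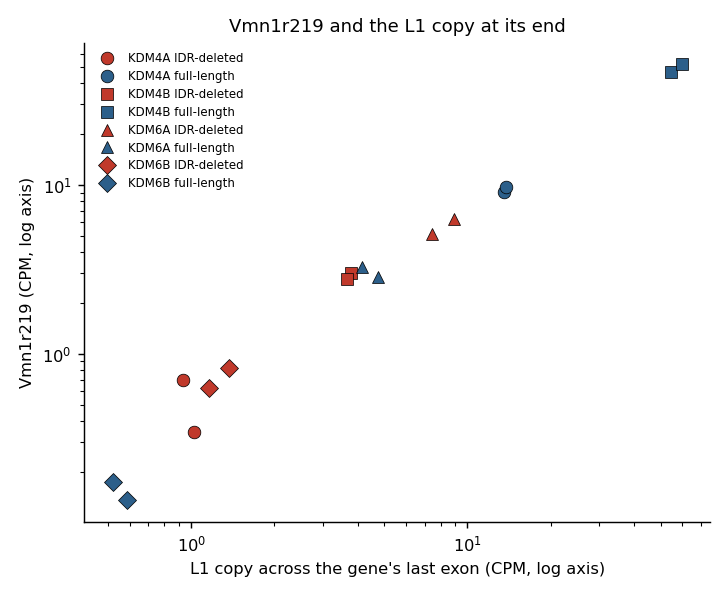
CPM of Vmn1r219 (vertical, log axis) against CPM of the L1 copy across its last exon (horizontal, log axis) in the 16 libraries; colour gives the form and the symbol the demethylase. The full-length KDM4B libraries are at the upper right (46.8 and 51.8 CPM for the gene) and the full-length KDM6B libraries at the lower left (0.173 and 0.135 CPM).

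Some members overlap other transcribed genes. Vmn1r-ps136, one of the 5 rises with IDR-deleted KDM4B, lies within Spryd7, which rose in the same comparison, at 11.9 and 10.7 CPM, against 8.86 and 8.41 CPM (log2 fold change 0.39, edgeR adjusted p = 0.00646). Vmn2r-ps105 overlaps the lincRNA Gm26806, which also rose, at 8.16 and 7.45 CPM, against 5.42 and 3.65 CPM. Of the lincRNAs over the other rises, Gm26754 (over Vmn2r-ps103) had a log2 fold change of 0.74 (adjusted p = 0.243) and Gm48166 (over Vmn2r-ps97) of 0.13 (0.728), and neither passed edgeR's test. Vmn1r51, Vmn1r52 and Vmn1r53 overlap the pseudogene Gm20426, which fell with IDR-deleted KDM4A, at 0.524 and 0.822 CPM, against 3.10 and 2.67 CPM, and did not pass with IDR-deleted KDM4B (-0.28, adjusted p = 0.460). Most of these overlaps share no exon bases, while Vmn1r51 shares 30 with Gm20426. Vmn1r90 shares 1757 exon bases with ENSMUSG00000121301, Vmn1r88 shares 1272 with the pseudogene Gm4879 and Vmn2r-ps99 shares 1031 with ENSMUSG00000121453. On the same strand, without shared exon bases, Vmn2r-ps106 overlaps Zfp640 (71717 reads) and Vmn2r-ps100 overlaps ENSMUSG00000120021 (18935 reads). Likewise, Vmn2r-ps17 overlaps Gm13166 (7903 reads), while Vmn2r-ps88 overlaps Insr (45252 reads) on the other strand. Reads on shared exon bases were counted for neither gene. Where no exon bases are shared, reads from introns of the overlapping gene could be counted for the member, since strand was not used. Whether the overlap bears on levels or changes was not tested.

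Taar2, an amine receptor of olfactory neurons, was the single TAAR gene. It drew 115 reads in all and was at 0.320 and 0 CPM with IDR-deleted KDM4A, against 0.140 and 0.303 CPM with full-length KDM4A. With IDR-deleted KDM4B it was at 0.126 and 0.201 CPM, against 0 and 0.0526 CPM with full-length KDM4B. The KDM6A libraries gave 0.0894 and 0.0384 CPM with the IDR-deleted and 0.113 and 0.0571 CPM with the full-length form, and the KDM6B libraries 0.348 and 0.353 CPM with the IDR-deleted and 0.130 and 0.271 CPM with the full-length form. None of the 4 comparisons passed the test (adjusted p = 0.126 to 0.873), and any difference among the 8 groups gave an edgeR adjusted p of 0.109.

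Genes that act beside the receptors in chemosensory neurons gave rises as well as falls. Of 10 tested genes of vomeronasal transduction, 5 rose and 1 fell with IDR-deleted KDM4A, 3 rose with IDR-deleted KDM4B, 1 with IDR-deleted KDM6A and 2 with IDR-deleted KDM6B, with no other fall. Beside these and the following lists, the shares of all genes called were 50.5% with KDM4A, 36.2% with KDM4B, 17% with KDM6A and 20.6% with KDM6B. Gnai2, the G protein subunit of V1R neurons, was at 81.6 and 73.5 CPM with IDR-deleted KDM4A, against 45.9 and 42.9 CPM with full-length KDM4A (0.80 ± 0.06). Omp, olfactory marker protein, was at 20.4 and 17.5 CPM, against 12.2 and 11.1 CPM (0.70 ± 0.10), and with IDR-deleted KDM4B at 11.28 and 10.596 CPM, against 7.55 and 6.97 CPM (0.59 ± 0.11). B2m, the light chain of class I molecules, rose with IDR-deleted KDM4B (1.02 ± 0.17). Plcb2, a phospholipase of taste transduction, rose with IDR-deleted KDM6B, at 0.956 and 1.20 CPM, against 0.347 and 0.587 CPM (1.21 ± 0.40).

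Of 14 tested genes of chemosensory neuron transcription, 7 rose and 4 fell with IDR-deleted KDM4A, 4 rose and 2 fell with IDR-deleted KDM4B, 2 rose and 1 fell with IDR-deleted KDM6A, and 4 rose and 1 fell with IDR-deleted KDM6B. Ebf1, a factor of the EBF family that binds olfactory receptor gene promoters, was at 10.22 and 10.0996 CPM with IDR-deleted KDM4A, against 21.7 and 20.4 CPM with full-length KDM4A (-1.05 ± 0.10), and at 9.23 and 9.41 CPM with IDR-deleted KDM4B, against 21.8 and 21.7 CPM with full-length KDM4B (-1.22 ± 0.10). With IDR-deleted KDM6B it rose, at 10.497 and 11.63 CPM, against 6.95 and 7.13 CPM (0.65 ± 0.10). Its paralog Ebf4 rose with IDR-deleted KDM4B (1.23 ± 0.09) and fell with IDR-deleted KDM6A (-0.40 ± 0.09). The homeodomain factor gene Meis2 fell with IDR-deleted KDM4A (-0.81 ± 0.05) and with IDR-deleted KDM6B (-0.40 ± 0.05) and rose with IDR-deleted KDM6A (0.72 ± 0.05).

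Of 10 tested genes of olfactory transduction and receptor transport, 5 rose and 2 fell with IDR-deleted KDM4A, 5 rose and 1 fell with IDR-deleted KDM4B, 3 rose and 2 fell with IDR-deleted KDM6A, and 3 rose with IDR-deleted KDM6B. The chaperone gene Hspa5 was at 637.2 and 634.5 CPM with IDR-deleted KDM4A, against 391.6 and 386.2 CPM with full-length KDM4A, and Calr at 807.5 and 804.5 CPM, against 462.1 and 453.8 CPM. Gnal, the olfactory G protein subunit, was at 85.4 and 81.9 CPM with IDR-deleted KDM4B, against 46.1 and 43.5 CPM with full-length KDM4B. Other chemosensory receptor lists were nearly silent: 0 of 7 formyl peptide receptor genes and 1 of 9 H2-M class Ib genes of the vomeronasal organ had enough reads to test, with summed levels of 0 to 0.201 CPM and 0.130 to 0.932 CPM per library. H2-M10.2, the gene tested, passed in none of the 4 comparisons. Of 6 neuron markers tested, 1 rose and 1 fell with IDR-deleted KDM4A and 1 rose and 2 fell with IDR-deleted KDM4B, while 1 rose with IDR-deleted KDM6A and 1 with IDR-deleted KDM6B. Among 3 fibroblast markers tested, 1 rose with IDR-deleted KDM4A and 1 with IDR-deleted KDM6B. Of 12 embryonic stem cell markers, 5 rose and 6 fell with IDR-deleted KDM4A and 3 rose and 7 fell with IDR-deleted KDM4B, 4 rose and 2 fell with IDR-deleted KDM6A, and 5 rose and 1 fell with IDR-deleted KDM6B. Whether these markers bear on the receptor levels was not tested.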

How the data were processed

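Chromatin-associated RNA of 16 libraries was measured. The authors' deposited tables hold raw read counts per gene and per repeat copy, made, per the file headers, by featureCounts (version 2.0.3; GRCm39; mapping quality 30 or more), counting both reads of a fragment, without strand, and giving reads with several matches or features to none. The submitters' processing notes name HISAT2. Symbols came from GENCODE M21 by Ensembl identifier; positions are the tables' own.

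edgeR 4.0.16 in R 4.3.3 (filterByExpr with a minimum count of 10, TMM, robust quasi-likelihood fit of all 16 libraries, 8 residual degrees of freedom) compared the IDR-deleted with the full-length form of every demethylase over 31057 genes, with Benjamini-Hochberg adjustment at 0.05. ERCC RNAs (0.582% to 1.55% of gene reads) stayed out of library sizes. CPM use TMM sizes. Bounds set a group without reads at 3 reads. Libraries of a group correlated at 0.980 to 0.988 (log2 CPM), and none were identical. On data simulated for the KDM4A comparison over 30062 genes, 52 of 100 changes of log2 1 and 76 of 100 of log2 2 were recovered.

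Genes were named by rule: the 12 with most reads, the 5 largest rises and falls per comparison without overlap between libraries, 3 on either side of the minimum of 50 reads, the 3 clearest differences of effects, and Taar2. Some receptor genes were named outside this rule with their values known, among them Vmn1r-ps29, Vmn1r53, Vmn2r-ps99 and Vmn1r220. From each pathway list up to 2 genes per comparison were named. The members, gene lists and clusters were chosen with earlier results of these data known. Other scalings, filters, DESeq2 1.42.0 and left-out libraries were run as alternatives.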

Additional observations from a re-analysis of the deposited data

Results flagged for a closer look

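Deletion effects differed between the demethylases of a pair by a direct test (edgeR's quasi-likelihood test of the difference of log2 fold changes, Benjamini-Hochberg adjusted). Between KDM4A and KDM4B this held for 20 of 92 receptor genes, against 31.1% of all genes, among them Vmn1r47 (-1.83), Vmn2r88 (-2.85) and Vmn2r-ps103 (-1.42). Between KDM6A and KDM6B it held for 4 of 92, against 21.8% of all genes, among them Vmn1r47 (-1.32), Vmn1r48 (-1.58) and Vmn1r43 (-2.31).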

How the results depend on the processing

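Scaling by ERCC reads moved the median log2 fold change of all genes to -0.70 for KDM4A, -0.18 for KDM4B, -0.21 for KDM6A and -0.38 for KDM6B, and only 7.61% of calls over all genes were then higher for KDM4A, 25.1% for KDM4B, 5.84% for KDM6A and 4.74% for KDM6B, against 48.7%, 51.5%, 49.0% and 47.9%. Receptor calls under it were 61 (0 higher, 61 lower) for KDM4A, 36 (2 and 34) for KDM4B, 7 (2 and 5) for KDM6A and 16 (5 and 11) for KDM6B. For the difference between the KDM4A and KDM4B effects, 49.7% of calls over all genes were higher, and 22.2% with library totals or 5.79% with ERCC scaling; between KDM6A and KDM6B it was 50.7%, and 76.7% with ERCC scaling. Scaling by library totals shifted the KDM4A median to -0.23, with 33.7% of all calls higher, and gave 46 receptor calls, 0 higher. For KDM6B, 3 genes were called on thinned counts and 4 in a fit of its 4 libraries. The ratio of summed CPM with library totals, ERCC scaling, without genes on repeats and without Vmn1r47 was 0.270, 0.196, 0.557 and 0.434 for KDM4A, 0.403, 0.343, 0.806 and 0.461 for KDM4B, 0.991, 0.872, 0.984 and 1.06 for KDM6A, and 1.04, 0.810, 0.913 and 1.00 for KDM6B; the causes were not tested. ERCC scaling turned the sign for Vmn2r1 with KDM4A (-0.61) and Vmn1r-ps151 with KDM6B (-0.034). Repeat reads were 29.9 per 100 with at least 50 exon bases required. Leaving out 1 library gave 34 to 41 calls for KDM4A, 24 to 37 for KDM4B, 2 to 5 for KDM6A, 3 to 8 for KDM6B, 12 to 20 and 3 to 6 for the differences of effects, and 60 to 67 for any difference. DESeq2 called 39, 30, 3 and 6 in the order KDM4A, KDM4B, KDM6A, KDM6B. Deviations of same-numbered libraries correlated at 0.103 to 0.172 in the 15 pairs among the KDM4A, KDM4B and KDM6A groups and at -0.0026 to 0.034 in pairs with a KDM6B group, a hint of pairing in those 3 comparisons that the labels do not state; with the replicate block the calls were 39, 37, 5 and 8, none moved by over 1.5 times; among named genes the block ended no call and added Vmn2r-ps106 (0.52) and Vmn1r-ps145 (-0.56) with KDM4B and Vmn1r47 (-0.24) with KDM6A. Over the named genes and all alternatives, 2520 values kept direction and side of the threshold, 54 lost the call, 28 gained one and 2 turned sign.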
